A study of Homo sapiens with 16 samples.

Results

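The genes described here code for 9 proteins of mitochondrial fatty acid oxidation, chosen by symbol from the 60623 genes listed for every library. They are CPT1A, CPT2, ACADVL, ACADM, HADHA, HADHB, ACAA2, ETFA and ETFB, and all 9 were found once each. Messenger RNA was measured in 16 libraries, 2 in each of 8 groups, from the human colorectal adenocarcinoma line Caco-2 (gut) and the human hepatocellular carcinoma line HepG2 (liver). Both lines were kept in chambers of a microfluidic chip, either alone (mono-culture) or with the other line in a second chamber joined by circulating medium (co-culture). Each culture was sampled without free fatty acids (control) or with free fatty acids (FFA) at 1 mM in total, palmitic acid and oleic acid in a ratio of 1:2. The labels give sampling after 1 day, while the study's methods describe a longer treatment. The 4 groups of each line were thus mono-culture control, mono-culture FFA, co-culture control and co-culture FFA, and a library is named below by line, group and replicate 1 or 2. The study's methods speak of 2 or more independent experiments for its mRNA-seq, while the labels do not tie the libraries to experiments or chips, so the p values measure the spread between these libraries. Both are tumour lines, each a single line, and stand in for hepatocytes and enterocytes only as such.

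Long-chain fatty acids enter the mitochondrion as carnitine esters. CPT1A, in the outer membrane, makes the ester and is the regulated step of entry, and CPT2, at the inner membrane, turns it back into the acyl-CoA. In the matrix the acyl-CoA dehydrogenases ACADVL (very long chains) and ACADM (medium chains) start each round of beta-oxidation. The trifunctional protein, built from the alpha subunit HADHA and the beta subunit HADHB, and the thiolase ACAA2 complete it. The electron transfer flavoprotein, a dimer of ETFA and ETFB, takes up the electrons of the dehydrogenases. In liver the acetyl-CoA produced feeds ketogenesis, but none of the 9 genes is a dedicated enzyme of ketone body synthesis, and BDH1 and OXCT1, of ketone body metabolism, are therefore described apart.

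The libraries held 49634 to 1657423 reads assigned to genes. The unit is CPM, in which the reads of each library are scaled to the same total, and 1 read was worth 0.603 to 20.1 CPM. The shallowest libraries were HepG2 co-culture FFA replicate 2 (49634 reads) and replicate 1 (147096 reads), so 3 reads, taken as the floor of detection, stood for 60.4 and 20.4 CPM there. In a check of the labels, 11 of 15 hepatocyte genes (such as ALB and AFP) exceeded every Caco-2 library in each of the 8 HepG2 libraries, and none was at 0 throughout Caco-2. Of 15 intestinal genes, 4 were higher in all 8 Caco-2 libraries, 7 had no read in any HepG2 library, and CDX1 had no read in either line.

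The difference between the lines was largest for CPT1A and ETFB, in opposite directions. CPT1A was lower in HepG2, ETFB and ACADM were higher, and no HepG2 library overlapped any Caco-2 library for these 3 genes. For CPT1A this takes HepG2 FFA libraries with no read as 0. In co-culture FFA their 3-read floors (20.4 and 60.4 CPM) lay within or above the Caco-2 range. Within a line, 1 of the 9 genes passed a test of FFA or co-culture, ETFB in Caco-2 co-culture, and count models called others, as given below. The tests were limma fits of log2(CPM + 1) over all genes of the comparison, with p values adjusted by the Benjamini-Hochberg method over those genes and a threshold of 0.05.

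The start regions of the genes that carry these differences are shown from RefSeq (GRCh38.p14, 250 bases before to 50 after the annotated start), 5′ to 3′ on the strand given. Capitals mark the GC box GGGCGG and the CCAAT box CCAAT, read on both strands. The window of CPT1A on chromosome 11 (chr11:68844228-68844527, minus strand) is shown because the gene had few reads in HepG2, and it holds neither motif.
CPT1A: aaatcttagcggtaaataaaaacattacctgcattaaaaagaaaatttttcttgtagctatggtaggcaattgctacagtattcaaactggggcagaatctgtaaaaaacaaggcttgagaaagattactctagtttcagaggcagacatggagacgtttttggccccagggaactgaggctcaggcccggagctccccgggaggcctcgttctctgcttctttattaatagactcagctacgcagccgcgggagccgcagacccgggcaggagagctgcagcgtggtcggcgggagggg
ETFB has 2 annotated starts on chromosome 19, and the values do not separate them. The window that opens the gene model (chr19:51366339-51366638, minus strand) holds 1 GC box and 2 CCAAT boxes, and the other (chr19:51354793-51355092, minus strand) holds 1 GC box.
ETFB first start: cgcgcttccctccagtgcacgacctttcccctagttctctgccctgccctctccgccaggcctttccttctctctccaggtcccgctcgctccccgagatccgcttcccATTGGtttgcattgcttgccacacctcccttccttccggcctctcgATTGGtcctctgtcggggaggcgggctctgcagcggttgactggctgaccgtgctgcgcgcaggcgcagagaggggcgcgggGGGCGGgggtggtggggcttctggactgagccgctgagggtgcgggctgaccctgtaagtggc
ETFB second start: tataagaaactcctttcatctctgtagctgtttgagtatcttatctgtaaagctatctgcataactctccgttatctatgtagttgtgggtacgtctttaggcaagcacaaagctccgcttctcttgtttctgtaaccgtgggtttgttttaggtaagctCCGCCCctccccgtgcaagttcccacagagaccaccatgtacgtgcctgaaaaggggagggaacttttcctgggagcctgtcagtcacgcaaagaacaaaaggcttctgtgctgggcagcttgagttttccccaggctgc
HADHA (minus strand) and HADHB (plus strand) start 307 bases apart, head to head, on chromosome 2. Their windows share 194 bases (chr2:26244689-26244882, plus strand shown), with 1 GC box. They are shown because the pair differed unequally between the lines, as described below.
HADHA and HADHB: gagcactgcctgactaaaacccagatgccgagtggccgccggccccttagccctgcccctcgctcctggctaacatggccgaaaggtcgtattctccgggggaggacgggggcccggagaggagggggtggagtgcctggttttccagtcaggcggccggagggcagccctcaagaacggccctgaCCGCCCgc
GC boxes were found in the windows of 7 of the 9 genes, that is in 8 of 11 windows, against 45% of the 35116 promoter windows of the table. CCAAT boxes were in 2 of 11 windows (ETFA and ETFB, each in 1) against 34.6% of all windows. The half-site AGGTCA (in 13.8% of all windows), which overlaps the direct repeat AGGTCANAGGTCA (DR1) bound by PPAR and RXR (0.0228%) and the element TNAAGGTCA of the estrogen-related receptors (0.951%), was in none of the 11 windows. Neither were the cyclic AMP response element TGACGTCA (1.85%) and the E-box CACGTG (7.26%).

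All 9 are protein-coding genes in GENCODE 44 on GRCh38. CPT1A lies at chr11:68754620-68844410 (minus strand) with no overlapping gene, and ETFB at chr19:51345169-51366388 (minus strand). HADHA (chr2:26190635-26244672, minus strand) and HADHB (chr2:26243170-26290465, plus strand) overlap at their 5′ starts on opposite strands in GENCODE. The RefSeq starts shown above lie 307 bases apart without overlap, so the annotations differ here. Reads from the overlap cannot be told apart where strand was not used, which is not given in the sources used here. ACADM (chr1:75724431-75787575, plus strand) overlaps RABGGTB on the same strand, and CPT2 (chr1:53196792-53214197, plus strand) overlaps CZIB on the other. ACAA2 (chr18:49782164-49813953, minus strand), HADHA and HADHB have pseudogenes named after them (ACAA2P1, HADHAP1, HADHAP2 and HADHBP1), which could take or lend reads.

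Over the 9 genes, the summed level ran between 694 and 1208 CPM among 8 libraries of Caco-2 and between 1623 and 2026 CPM among 8 of HepG2. These ranges did not overlap. Most of the excess was a single gene, ETFB, as the plot of the 9 genes by library shows.

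**Figure D1:**
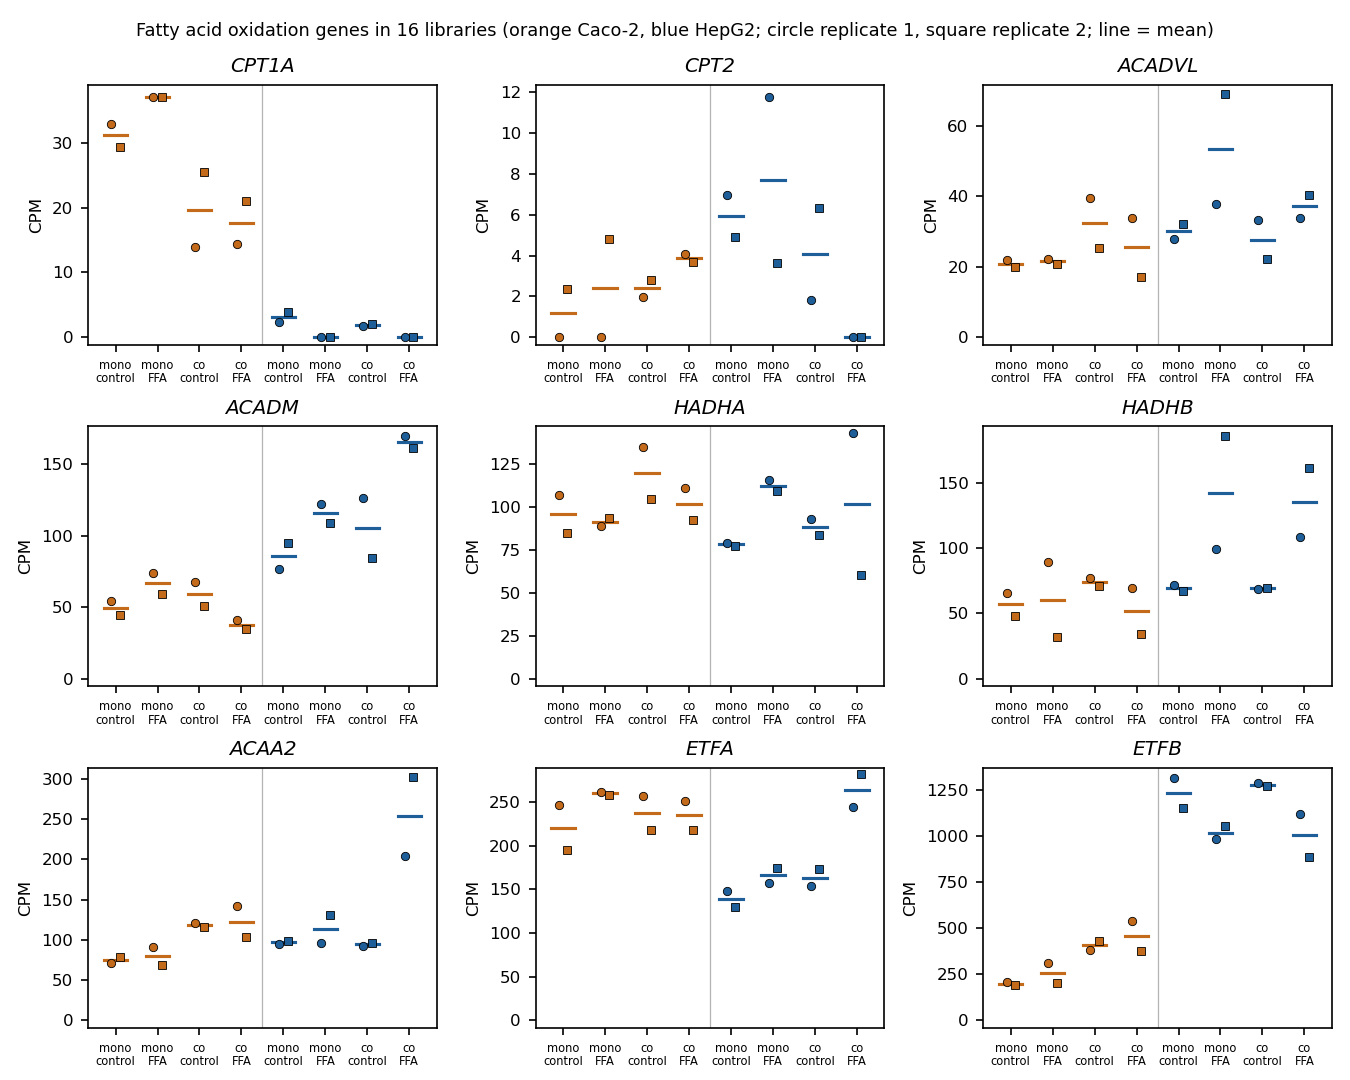
Level of each of the 9 genes (vertical axis, CPM, linear) in the 16 libraries, by group (horizontal axis), with Caco-2 in orange, HepG2 in blue, circles for replicate 1, squares for replicate 2 and a line at the mean of 2. CPT1A lies at 13.9 to 37.1 CPM in Caco-2 and at 0 to 3.91 CPM in HepG2, and ETFB at 192 to 541 CPM in Caco-2 and 886 to 1316 CPM in HepG2.

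Between the lines, with the 4 conditions averaged, 6 of the 9 genes passed the test, 4 higher and 2 lower in HepG2. Lines differed widely, and 30.3% of the 17544 genes tested passed, 12.5% higher and 17.9% lower in HepG2. The median log2 difference was 0.43 over the 9 genes and -0.16 over all genes tested. Groups that did not overlap between 8 and 8 libraries were found for 3 of the 9 genes and for 10.3% of the genes tested. In both counts a library with no read stood at 0, as for CPT1A in HepG2 FFA. The other genes of the pathway, taken from a list of 52, gave 9 passing genes among 47 tested, 6 higher and 3 lower in HepG2.

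CPT1A, the entry step, was detected in every Caco-2 library, at 32.8 and 29.4 CPM in mono-culture control, 37.1 and 37.0 CPM in mono-culture FFA, 13.9 and 25.4 CPM in co-culture control and 14.4 and 20.9 CPM in co-culture FFA. In HepG2 it was at 2.32 and 3.91 CPM in mono-culture control, 1.81 and 2.11 CPM in co-culture control, and had no read in any of the 4 FFA libraries. Thus the lowest Caco-2 library stood above the highest HepG2 library, although the 3-read floors of the HepG2 co-culture FFA libraries (20.4 and 60.4 CPM) lay above it. Without the co-culture FFA groups of both lines, an alternative added after seeing the data, the log2 difference was -3.66 (adjusted p = 3.62e-07, limma). Over all 8 libraries of a line this was 122 of 4888030 reads in Caco-2 and 10 of 4953364 reads in HepG2, 12.4 times as many per read in Caco-2 (95% exact interval 6.50 to 26.4, for counting error only, since PCR copies are not independent molecules). The fitted difference was -3.80 ± 0.30 (SE) on the log2(CPM + 1) scale, HepG2 minus Caco-2, with an adjusted p of 2.38e-07 in limma. The size depended on the pseudocount because of the libraries at 0, while the call held in each of the 26 alternatives run.

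CPT2, which acts after CPT1A, gave 0 to 6 reads per library, and 2 Caco-2 and 2 HepG2 libraries had none. The median was 2.59 CPM in Caco-2, where no library exceeded 4.82 CPM. HepG2 had a median of 4.27 CPM and a highest library of 11.8 CPM. The difference between the lines was 0.43 ± 0.49 (SE) on the log2 scale (adjusted p = 0.518, limma), and 0.11 to 0.75 without single libraries. It counts the HepG2 co-culture FFA libraries as 0 although 3 reads there stood for 20.4 and 60.4 CPM, and without the co-culture FFA groups of both lines the difference was 1.34 (adjusted p = 0.0872). No difference was thus detectable at this depth. As 6 libraries had no read of one or the other, the ratio of CPT1A to CPT2 was not formed.

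The acyl-CoA dehydrogenases were both higher in HepG2 by their medians. ACADM lay between 34.5 and 74.2 CPM in Caco-2 (median 52.8) and between 76.6 and 169.9 CPM in HepG2 (median 116), with no overlap. Its log2 difference was 1.12 ± 0.14 (SE), with an adjusted p of 2.47e-05 (limma), and this call held in the same 26 alternatives. ACADVL ranged from 17.2 to 39.6 CPM in Caco-2 (median 22.1) and from 22.2 to 69.1 CPM in HepG2 (median 33.6), ranges that overlapped. It did not pass, at 0.52 ± 0.22 (SE) and an adjusted p of 0.0858 (limma). Without Caco-2 co-culture FFA replicate 1 or without HepG2 mono-culture FFA replicate 1 it passed (adjusted p 0.0266 to 0.0367).

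The subunit genes of the trifunctional protein differed in unequal measure. HADHA lay between 84.6 and 134.7 CPM in Caco-2 (median 98.9) and between 60.4 and 142.8 CPM in HepG2 (median 88.2), and the log2 difference of -0.13 ± 0.16 (SE) did not pass (adjusted p = 0.557, limma). Leaving out HepG2 co-culture FFA replicate 2 alone gave 0.021 (adjusted p = 0.880) and leaving out replicate 1 alone gave -0.29 (adjusted p = 0.0473), while without the co-culture FFA groups of both lines it was -0.14 (adjusted p = 0.439). HADHB lay between 32.1 and 89.0 CPM in Caco-2 (median 67.7) and between 67.4 and 185.5 CPM in HepG2 (median 85.4). It passed as higher in HepG2, by 0.74 ± 0.23 (SE) with an adjusted p of 0.0253 (limma), although the ranges overlapped. This call was lost without the co-culture FFA groups (adjusted p = 0.0983). It was also lost without any 1 of 12 libraries (adjusted p 0.0533 to 0.0995) and held only without Caco-2 mono-culture FFA replicate 1, Caco-2 co-culture FFA replicate 1, HepG2 mono-culture FFA replicate 1 or HepG2 co-culture FFA replicate 1.

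Within a library, the log2 ratio of HADHA to HADHB compares both genes free of the library total. It averaged 0.81 ± 0.49 (SD, n = 8) in Caco-2 and -0.07 ± 0.66 (SD, n = 8) in HepG2, a difference of -0.88. An exact two-sided permutation test, with line labels exchanged within each of the 4 conditions (1296 arrangements), gave p = 0.00463, which was also the Benjamini-Hochberg value over the 2 ratios tested. The ranges overlapped, as Caco-2 libraries lay between 0 and 1.54 and HepG2 libraries between -1.42 and 0.43. The lowest HepG2 ratio, in co-culture FFA replicate 2, rests on 3 reads of HADHA and 8 of HADHB. As reads are not scaled for transcript length or for capture, the ratio is compared between lines and is not a ratio of subunits.

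ACAA2, the thiolase, lay between 69.1 and 141.6 CPM in Caco-2 (median 97.5) and between 92.3 and 302.2 CPM in HepG2 (median 97.7). The medians were thus close, while the averaged log2 difference of 0.39 ± 0.13 (SE) passed (adjusted p = 0.0351, limma). The co-culture FFA libraries of HepG2, at 204 and 302 CPM, were the highest of all 16. With the co-culture FFA groups of both lines left out, the difference was 0.18 (adjusted p = 0.316). Leaving out single libraries ended the call for 9 of 16 (adjusted p 0.0509 to 0.0645), namely Caco-2 mono-culture control replicate 1, mono-culture FFA replicate 2, co-culture control replicate 2 and co-culture FFA replicate 2, and HepG2 mono-culture control replicates 1 and 2, mono-culture FFA replicate 2 and co-culture control replicates 1 and 2.

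The electron transfer flavoprotein genes went in opposite directions. ETFB was at 208 and 192 CPM in Caco-2 mono-culture control, 312 and 201 CPM in mono-culture FFA, 382 and 432 CPM in co-culture control and 541 and 376 CPM in co-culture FFA. In HepG2 it was at 1316 and 1152 CPM in mono-culture control, 982 and 1055 CPM in mono-culture FFA, 1288 and 1272 CPM in co-culture control and 1122 and 886 CPM in co-culture FFA. Every HepG2 library was above every Caco-2 library. The log2 difference of 1.86 ± 0.10 (SE), 3.63-fold, had an adjusted p of 6.10e-09 (limma), and it held in the same 26 alternatives. ETFA, in contrast, was lower in HepG2, with 130 to 282 CPM (median 166) against 195 to 262 CPM in Caco-2 (median 249). Its log2 difference was -0.42 ± 0.09 (SE), with an adjusted p of 0.00321 (limma), and it did not pass with a constant prior variance (adjusted p = 0.0578). The HepG2 co-culture FFA libraries, at 245 and 282 CPM, lay among or above those of Caco-2, whereas the other 6 HepG2 libraries were below all 8 of Caco-2.

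The log2 ratio of ETFA to ETFB within a library was -0.38 ± 0.56 (SD, n = 8) in Caco-2 and -2.66 ± 0.52 (SD, n = 8) in HepG2. The difference of -2.28 gave p = 0.00154 by the same exact permutation test (adjusted p = 0.00309), and this p is the smallest the design allows. The lines did not overlap, as Caco-2 libraries lay between -1.11 and 0.37 and HepG2 libraries between -3.15 and -1.65. Group means in Caco-2 were 0.14 ± 0.15 (SD, n = 2) in mono-culture control, 0.06 ± 0.43 in mono-culture FFA, -0.78 ± 0.30 in co-culture control and -0.95 ± 0.23 in co-culture FFA, so both co-culture groups had the lower ratio.

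**Figure D2:**
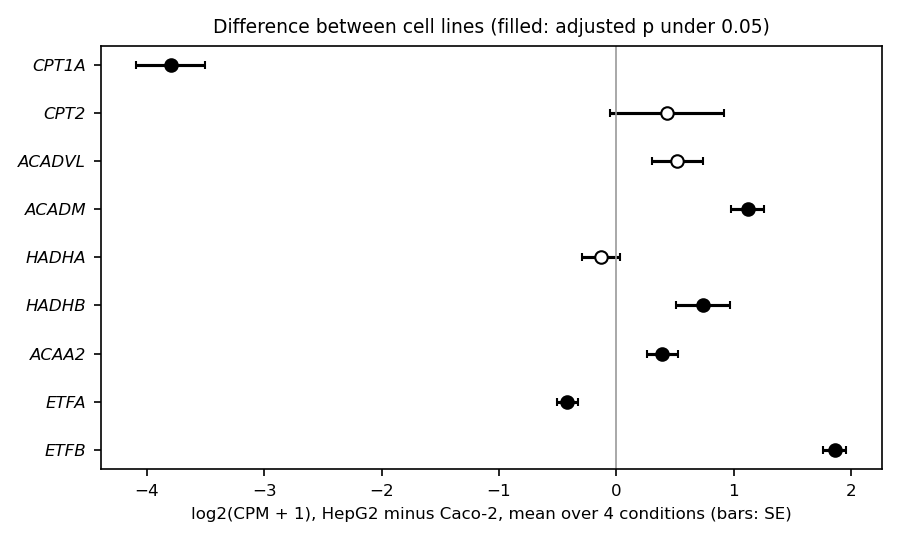
Difference between the lines for each gene (horizontal axis, HepG2 minus Caco-2 in log2(CPM + 1), averaged over 4 conditions, bars are SE), with filled circles for an adjusted p under 0.05. The points run from -3.80 for CPT1A to 1.86 for ETFB, and CPT2, ACADVL and HADHA are open.

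**Figure D3:**
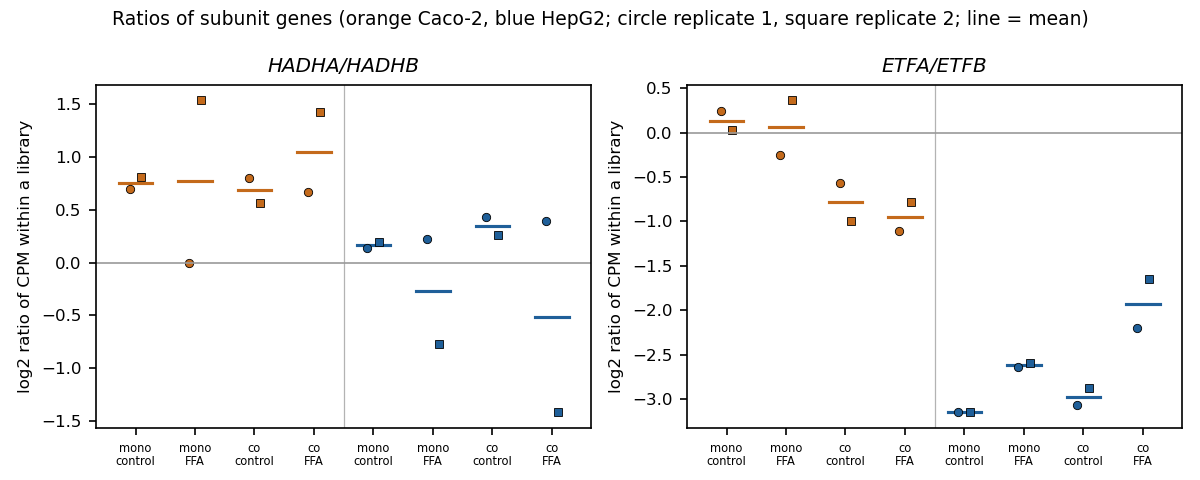
Log2 ratio of the CPM of HADHA to HADHB (left) and of ETFA to ETFB (right) in each library (vertical axis) by group (horizontal axis), with Caco-2 in orange, HepG2 in blue, circles for replicate 1, squares for replicate 2 and a line at the mean. The ETFA to ETFB ratio of all HepG2 libraries is at or below -1.65 and that of all Caco-2 libraries at or above -1.11.

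Which genes answered to the other line was asked within each line, as co-culture against mono-culture. In Caco-2, averaged over control and FFA, 1 of the 9 genes passed, ETFB, against 0.453% of the 15454 genes tested (0.317% higher in co-culture). ETFB rose by 0.93 ± 0.15 (SE) on the log2 scale, 1.91-fold, with an adjusted p of 0.0141 (limma), and all 4 co-culture libraries were above all 4 mono-culture libraries. The difference was 1.02 ± 0.21 in control (adjusted p = 0.110) and 0.85 ± 0.21 with FFA (adjusted p = 0.222), where 0.0971% of genes passed in both comparisons and none of the 9 did. The median log2 change of the 9 genes was 0.23, and of all genes tested 0.14. The averaged call was lost without any 1 of the 8 Caco-2 libraries (adjusted p 0.0564 to 0.212), with log2 changes from 0.78 to 1.09. It was also lost with a pseudocount of 0.1 (adjusted p = 0.123) and with a constant prior variance (adjusted p = 0.332).

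In HepG2, the line in the other chamber, ETFB was at 886 CPM or more. The summed level of the 15 hepatocyte genes in the Caco-2 libraries was 19.6% to 22.6% of that in HepG2 mono-culture control in the 4 mono-culture libraries, and 24.8% to 26.6% in the 4 co-culture libraries, which do not overlap. The summed level of the 15 intestinal genes in the same libraries, relative to Caco-2 mono-culture control, was 91.7% to 114% in mono-culture and 124% to 150.7% in co-culture, also without overlap. The part of these shifts in the change of ETFB was not tested. In bulk libraries, more cells of a kind and more RNA per cell cannot be told apart.

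ACAA2 and CPT1A also had co-culture libraries that did not overlap those of mono-culture in Caco-2, without passing the test. ACAA2 was at 71.1 and 78.7 CPM in mono-culture control, 91.5 and 69.1 CPM in mono-culture FFA, 121 and 116 CPM in co-culture control and 142 and 103 CPM in co-culture FFA, a log2 difference of 0.63 ± 0.16 (adjusted p = 0.124, limma). CPT1A went the other way, by -0.87 ± 0.28 (adjusted p = 0.217, limma), with mono-culture libraries at 29.4 CPM or more and co-culture libraries at 25.4 CPM or less. Such separation of 4 against 4 libraries held for 3 of the 9 genes and for 5.93% of the genes tested. The other 6 genes gave log2 differences from -0.28 (ACADM) to 0.95 (CPT2), with adjusted p from 0.586 to 0.956.

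In HepG2, no member passed for co-culture, whether averaged, in control or with FFA, and 0% of the 14430 genes tested passed in any of these 3 comparisons. Unadjusted p values were under 0.05 for 1114 genes in the averaged comparison, and for 3 of the 9 members (ACAA2, ETFA and CPT2). That of CPT2 rests on co-culture FFA libraries with no read, where 3 reads stood for 20.4 and 60.4 CPM. These floors lay above its highest HepG2 library (11.8 CPM), so a lower level of CPT2 is not shown. ETFB, with a log2 difference of 0.01 ± 0.09 (SE), was among the smallest. No member separated co-culture from mono-culture in HepG2, against 2.31% of the genes tested. Without HepG2 co-culture FFA replicate 1, that group is 1 library assumed to vary like the others. It is the shallowest (49634 reads), with 15 reads of ACAA2, 14 of ETFA and 3 of HADHA. The log2 difference of ACAA2 was then 0.69 averaged and 1.42 with FFA, and that of ETFA 0.76 with FFA. The difference in co-culture effect between the lines, HepG2 minus Caco-2, was -0.92 ± 0.20 for ETFB (adjusted p = 0.127, limma). None of the 9 passed there in limma, against 0.0969% of genes, while ETFB passed with edgeR (adjusted p = 0.00023) and with DESeq2 (adjusted p = 0.000324).

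**Figure D4:**
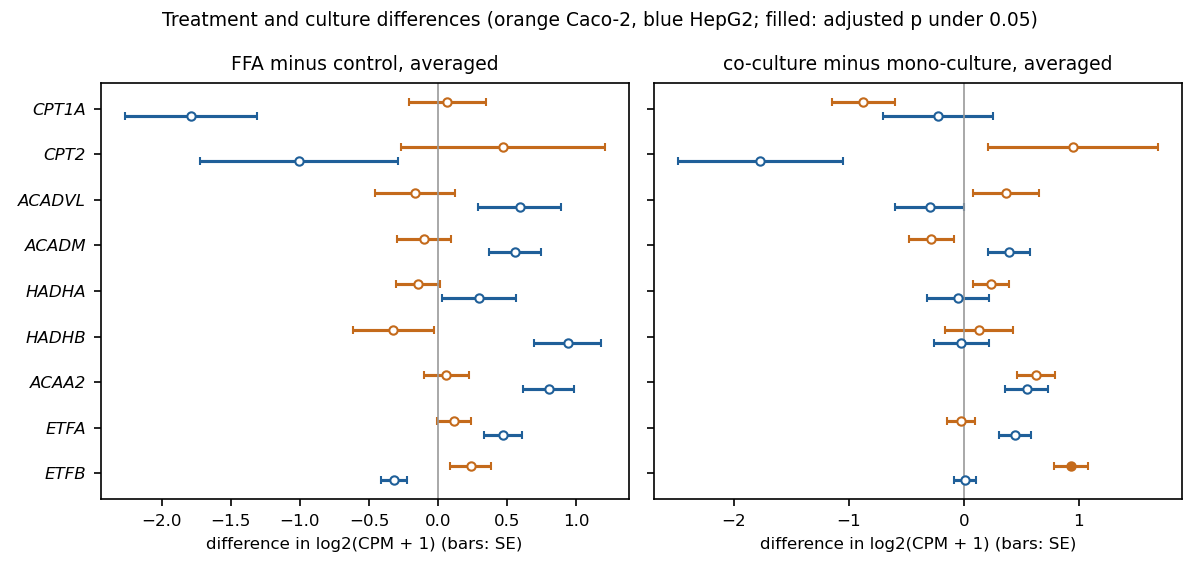
Averaged log2(CPM + 1) differences of the 9 genes for FFA minus control (left) and co-culture minus mono-culture (right), with Caco-2 in orange, HepG2 in blue, bars for SE and filled circles for an adjusted p under 0.05. The single filled circle is ETFB in Caco-2 co-culture (0.93).

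Free fatty acids are the substrate of the pathway, and their effect was tested in each culture. In Caco-2 none of the 9 passed in mono-culture (0.00647% of genes passed), in co-culture (0%) or averaged (0%). With averaged cultures, log2 differences lay between -0.32 (HADHB) and 0.47 (CPT2), the median was 0.06 (0.04 over all genes tested), and no member reached an unadjusted p of 0.05, while 750 genes did. No member separated FFA from control libraries, against 1.89% of genes. ACADM was at 54.7 and 44.6 CPM in mono-culture control, 74.2 and 59.5 CPM in mono-culture FFA, 67.4 and 50.9 CPM in co-culture control and 41.0 and 34.5 CPM in co-culture FFA. Its FFA effect differed between cultures by -1.04 ± 0.39, which did not pass (adjusted p = 0.820, limma), as no gene did (0%), with 776 genes at an unadjusted p under 0.05.

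In HepG2 none of the 9 passed for FFA, in mono-culture (0%), in co-culture (0%) or averaged, where 0.0762% of genes passed. Of the 9, 6, CPT1A among them, had an unadjusted p under 0.05 in the averaged comparison, where 1994 of 14430 genes did. Groups of 4 and 4 libraries did not overlap for ACADVL and HADHB, which were higher, and ETFB, which was lower. This separation was found in 7.53% of the genes tested, a share that includes genes with no read in 1 of the groups. That of ACADVL rests on 5 and 2 reads in the co-culture FFA libraries (34.0 and 40.3 CPM), against a highest control of 33.2 CPM. The 2 reads, of replicate 2, lie below the floor of 3 reads there (60.4 CPM). A higher level of ACADVL in co-culture FFA is thus not shown. CPT1A was not counted, since its FFA libraries had no read and 3 reads there stood for 7.07 to 60.4 CPM, above every control. The median log2 difference was 0.47 over the 9 genes and -0.07 over all genes tested. FFA libraries of HepG2 held 49634 to 424538 reads and controls 430815 to 1657423, so depth moved with the treatment, and its part in these differences was not tested.

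HADHB was at 71.9 and 67.4 CPM in mono-culture control and 68.8 and 69.8 CPM in co-culture control, against 98.9 and 185.5 CPM in mono-culture FFA and 109 and 161 CPM in co-culture FFA. The FFA values lay above the controls in both cultures, by 0.94 ± 0.24 on the log2 scale (adjusted p = 0.192, limma). Those of co-culture FFA rest on 16 and 8 reads of HADHB. Their exact 95% intervals for counting error, 62.2 to 177 CPM and 69.6 to 318 CPM, reach into the range of the controls. ACAA2 was at 95.2 and 98.7 CPM in mono-culture control, 96.6 and 131 CPM in mono-culture FFA, 92.3 and 96.2 CPM in co-culture control and 204 and 302 CPM in co-culture FFA. Those last values rest on 30 and 15 reads, with exact (Clopper-Pearson) 95% intervals of 138 to 291 CPM and 169 to 498 CPM for counting error only, both above the controls. The averaged difference was 0.80 ± 0.19 (adjusted p = 0.173), and that in co-culture 1.39 ± 0.26 (adjusted p = 0.117). ETFB fell short of the test too, at -0.32 ± 0.09 (adjusted p = 0.218), with FFA libraries at 1122 CPM or less and controls at 1152 CPM or more.

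ETFA was at 149 and 130 CPM in mono-culture control, 158 and 175 CPM in mono-culture FFA, 154 and 173 CPM in co-culture control and 245 and 282 CPM in co-culture FFA. ACADM ran from 76.6 to 126 CPM in the 4 controls and from 109 to 170 CPM in the 4 FFA libraries. Their averaged log2 differences were 0.47 ± 0.14 and 0.56 ± 0.19, with adjusted p of 0.214 and 0.253 (limma). CPT1A had 10 reads in the 4 controls together (2.46 CPM, exact 95% interval 1.18 to 4.53). It had 0 of 896125 reads in the 4 FFA libraries (exact 95% interval 0 to 4.12 CPM), so a loss was not detectable at this depth.

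Count models gave other calls. The share of all genes passing in these alternatives is not given here, so the counts cannot be set against it. With edgeR on the whole reads, 3 of the 9 passed for the averaged FFA effect in HepG2 (HADHB, ACAA2 and ETFB, adjusted p 0.0338, 0.0303 and 0.00306), and with DESeq2 ETFB alone passed (adjusted p = 6.91e-05). Leaving out HepG2 co-culture FFA replicate 1 left that group with replicate 2 alone (49634 reads). There ACAA2, ETFB, HADHB and ETFA had 15, 44, 8 and 14 reads. Their averaged log2 differences were then 0.94, -0.40, 1.08 and 0.52. Without HepG2 mono-culture control replicate 2 or co-culture control replicate 1, CPT1A passed (adjusted p 0.0164 to 0.0198), a call that sets control levels against FFA libraries with no read and with floors above those levels, so it does not show a loss. In limma, neither the FFA by culture interaction in HepG2 (0% of genes) nor the difference in FFA effect between the lines (0.0912% of genes) passed for any member, and the latter was 1.26 ± 0.46 for HADHB (adjusted p = 0.307). For ETFB the difference in FFA effect passed with edgeR (adjusted p = 0.000844) and with DESeq2 (adjusted p = 0.00136).

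Asked over all 4 groups of a line at once, the F-test passed for none of the 9 in Caco-2 (0.155% of genes) or HepG2 (0%). With the thresholds of the study, an unadjusted p under 0.05 and at least a 1.2-fold change between any groups, 3 members passed in Caco-2 (ETFB, ACAA2 and CPT1A). In HepG2, 5 passed (ACAA2, ETFA, HADHB, CPT1A and ACADM). Of all genes tested, 1261 of 15454 did so in Caco-2 and 1759 of 14430 in HepG2. The CPT1A call in HepG2 sets controls against FFA libraries with no read and with 3-read floors of 7.07 to 60.4 CPM, above every control. It thus does not show a loss.

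Of the genes of ketone body metabolism, BDH1, which interconverts the ketone bodies, had a median of 5.57 CPM in Caco-2 (2.46 to 13.9 CPM) and of 20.4 CPM in HepG2 (0 to 48.7 CPM). The higher level in HepG2 did not pass between the lines (log2 difference 1.21 ± 0.58, adjusted p = 0.137, limma). The HepG2 library at 0 was the shallowest one, co-culture FFA replicate 2. OXCT1, which is used for ketone body breakdown, had at most 3 reads in any library.

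Among the other genes of the pathway that differed between the lines, those of the matrix went both ways. ECI2, an enoyl-CoA isomerase, was higher in HepG2 by 1.66 ± 0.18 on the log2 scale (adjusted p = 7.16e-06), with 109 to 222 CPM against 16.5 to 63.4 CPM. ACADSB, an acyl-CoA dehydrogenase of short branched chains, was 2.30-fold higher on the fitted scale (adjusted p = 0.0166). ACSL4, an acyl-CoA synthetase, was higher by 1.25 ± 0.33 (adjusted p = 0.0112). PPARGC1A, a coactivator of oxidation genes, had 22 reads in HepG2 and none in Caco-2. The HepG2 level was 7.24 times a floor of 3 reads over the 8 Caco-2 libraries, without the counting error of the 22 reads. PPARGC1A was kept by the minimum of 1 CPM through HepG2 groups alone, and it had no read in HepG2 mono-culture FFA. RXRA, the partner of the PPAR receptors, had 20 reads in Caco-2 and 2 in HepG2, a ratio of 10.1 (exact 95% interval 2.46 to 89.4, for counting error only). Its log2 difference was -1.82 ± 0.40 (adjusted p = 0.00316, limma). RXRA was kept by the minimum of 1 CPM through Caco-2 groups alone, as its HepG2 group means were 0 to 0.49 CPM. HADH, a hydroxyacyl-CoA dehydrogenase, was lower in HepG2 by -1.01 ± 0.33 (adjusted p = 0.0345). Besides these, ACSL3 and HSD17B4 were higher and ECHS1 lower in HepG2. By group, the calls were 4 of 15 tested genes of matrix beta-oxidation (2 in each direction), 2 of 5 acyl-CoA synthetases, 1 of 9 peroxisomal genes, 2 of 13 regulators, 0 of 3 genes of the carnitine shuttle and 0 of the 2 genes of ketone body metabolism described above.

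No gene of that list passed in any other comparison. Those with the smallest p were ECI1 for Caco-2 co-culture (log2 difference 0.96 ± 0.22, adjusted p = 0.0764), PPARA for Caco-2 FFA (-1.43 ± 0.56, adjusted p = 0.829), PPARG for HepG2 FFA (1.83 ± 0.47, adjusted p = 0.193) and ABCD3 for HepG2 co-culture (0.97 ± 0.45, adjusted p = 0.655), all averaged. In Caco-2 co-culture, the 44 tested genes of the list had a median log2 difference of 0.46, against 0.14 over all genes tested. A shift of the list as a whole was not tested.

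The genes whose 8 group means followed the average of the 9 most closely were MRPL43, ERP29, PRDX1, UQCC2 and ITGB1. Likeness was the root mean square difference of centred log2(CPM + 1) group means, which was 0.06, 0.07, 0.09, 0.10 and 0.10 for these and had a median of 0.43 over the 2022 genes compared. The average itself varied little, from -0.25 in Caco-2 mono-culture control to 0.15 in HepG2 mono-culture FFA.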

How the data were processed

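Polyadenylated RNA of 16 cultures was amplified as cDNA by PCR and read on an Oxford Nanopore device. The submitters' processing notes name minimap2 2.22 and GRCh38, while the study's methods name STAR and RSEM for mRNA-seq without a platform, so which tool counted these libraries is not settled by the sources used here. The deposited values are named TPM but are whole multiples of 1 step per library (100% of low values within 0.1 of a whole read), which transcript-length scaling would break, so they were treated as CPM made by the authors from whole reads. The tests planned for TPM were kept.

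Genes with a group mean of at least 1 CPM in 1 group were kept. Values were transformed to log2(CPM + 1) and fitted with limma 3.58.1 (R 4.3.3, trended prior variance) per line, and over both lines for comparisons between them, with Benjamini-Hochberg adjustment over all genes tested. The recovered reads (49634 to 1657423 per library) were tested with edgeR 4.0.16 and DESeq2 1.42.0 as alternatives. Simulated data were used first to test limma, edgeR and DESeq2 at their main settings. This covered the averaged FFA effect in each line and the difference between the lines, and no other comparison or setting. Ratios used exact permutation tests (scipy 1.17.1), adjusted over the 2 ratios formed, as the planned ratio of CPT1A to CPT2 could not be formed in 6 libraries with no read of one of them. The members, the pathway list and the marker lists were chosen with earlier results of these data known, and some genes of the planned pathway list are not reported here and were left out of its counts.

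Named genes were the 9 members, BDH1 and OXCT1, up to 6 pathway genes per comparison with the largest change among those that passed, or else the 1 with the smallest p, and the 5 genes of most similar profile with a mean of at least 50 CPM. HSD17B4, ACSL3 and ECHS1 are named beyond that rule, after their values were seen. Alternatives were a pseudocount of 0.1, no filter, a minimum of 10 CPM, quantile and median-ratio scaling, a constant prior variance, a replicate block, the thresholds of the study and leaving out each library. Intervals and floors (3 reads) cover counting error only.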

Additional observations from a re-analysis of the deposited data

How the results depend on the processing

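Counts of members past the threshold were recomputed for 19 comparisons, 350 values in all, of which 56 differed from the reported count by more than 1.5 times. The share of all genes passing in each alternative is not given here beside these counts. For Caco-2 co-culture, averaged, ETFB was lost (0 members) with a pseudocount of 0.1 (adjusted p = 0.123) and with a constant prior variance (0 members, adjusted p = 0.332), without any single library the range was 0 to 0 members, and 2 members passed with a minimum of 10 CPM (with ACAA2) and 3 with edgeR (with ACAA2 and CPT1A). For Caco-2 co-culture in control, 1 member in place of 0 (ETFB) passed with no filter, with a minimum of 10 CPM, with edgeR and with DESeq2. With FFA, ETFB also passed (1 member) with a minimum of 10 CPM, edgeR and DESeq2. For the F-test of Caco-2, ETFB passed (1 member) with no filter, a minimum of 10 CPM, quantile normalization, edgeR and DESeq2, and 3 members passed with the thresholds of the study.

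In HepG2, edgeR and DESeq2 each called 2 members for FFA in co-culture (ACAA2 and ETFB), 3 and 1 for the averaged FFA effect, and 2 and 1 in the F-test. There the thresholds of the study called 5, among them CPT1A, which had no read in the FFA libraries. Leaving out single libraries gave 0 to 3 members for FFA in co-culture, 0 to 4 for FFA averaged, 0 to 3 for co-culture with FFA and 0 to 1 for co-culture averaged, the interaction and the F-test. The upper end of each of these HepG2 ranges came without HepG2 co-culture FFA replicate 1, which left that group with the shallowest library alone (49634 reads). Between the lines, 3 members passed with a constant prior variance (ACADM, CPT1A and ETFB, with ETFA at an adjusted p of 0.0578), 5 with quantile normalization, median-ratio rescaling and DESeq2 (ACAA2 lost in each), 4 without the co-culture FFA groups, which was added after seeing the data, and 4 to 7 without single libraries. The differences of the FFA effect and of the co-culture effect between lines each went from 0 to 1 member with edgeR and with DESeq2 (ETFB), the first also with a pseudocount of 0.1 (1, CPT1A), and both had 0 to 1 without single libraries. For a count at 0 that became 1 or more, the cause was not tested.

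Of 1023 recomputed single values, 935 kept their direction and their side of the threshold, 39 lost the call, 48 gained it and 1 changed sign, HADHA between the lines (-0.13 as reported, -0.29 to 0.021 without single libraries, the upper value without HepG2 co-culture FFA replicate 2). Replicate numbers were not taken as pairs, because deviations of samples with the same number had mean correlations of 0.0142 (Caco-2) and 0.00866 (HepG2) over genes at 1 CPM or more, and 0.151 (-0.0172 to 0.291) and 0.0529 (-0.103 to 0.121) over genes at 100 CPM or more, so that not every pair exceeded 0.1. With the replicate block, ETFB passed (1 member) in Caco-2 co-culture in control, with FFA and in the F-test, and the count in every other comparison was as reported. In the HepG2 co-culture FFA libraries 3 reads stood for 60.4 and 20.4 CPM, more than the level of CPT1A or CPT2 in any HepG2 library, so neither gene could be followed there. Where leaving out 1 library left a group with 1, that library was assumed to vary like the others.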
